A study of Mus musculus with 6 samples.

Results

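The interleukin-1 family genes described here are the ligand genes Il1a, Il1b, Il18 and Il33, the antagonist gene Il1rn and the receptor genes Il1r1 and Il1rap, chosen by name. Of these 7 genes, 6 were in the table of 14254 genes, and all 6 passed the filter on low values. Il1b was not analysed here. Expression was measured by RNA sequencing in organoids, which are tumour cells grown as three-dimensional clusters in culture, of KPF_5.3G, a mouse line of pancreatic ductal adenocarcinoma (PDAC). In 3 libraries (shJag1) the organoids carried the lentiviral hairpin shJag1_3 against Jag1, a membrane ligand of Notch receptors, and their genotype is labelled Jag1 knockdown. The other 3 libraries (shCtrl) carried a control hairpin and are labelled WT, although both groups come from the same tumour line. Both groups grew in advanced DMEM/F12 with Primocin, B27, nicotinamide, N-acetylcysteine, gastrin, hFGF-10, EGF, R-Spondin-1 and mNoggin, and no further treatment is labelled. The comparison therefore rests on 1 line and 1 hairpin. The series describes biological replicates, but not whether they were separate transductions or passages, so p-values measure the spread between these libraries.

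Interleukin-1 is an alarm signal of epithelia and myeloid cells. Its alpha form, made from Il1a, is held inside epithelial cells and released on damage, and its beta form is cut to its active form by inflammasome caspases. Both bind the receptor encoded by Il1r1, which then recruits the accessory chain encoded by Il1rap, and MyD88, IRAK kinases and TRAF6 carry the signal to NF-kB and MAP kinases. The antagonist encoded by Il1rn occupies the same receptor without recruiting the accessory chain. Il18 encodes a ligand with a receptor of its own, and Il33 encodes a nuclear alarmin whose receptor also uses the accessory chain. In pancreatic cancer, interleukin-1 is known for inducing chemokines and for shaping inflammatory fibroblasts.

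The sequence before the transcription start is shown for Il1a, the ligand with the widest spread between libraries, for the antagonist gene Il1rn and for the ligand gene Il33. Windows are the 250 bases before the RefSeq start in build GRCm38.p6, written 5′ to 3′ on the gene's strand. Capitals mark matches on either strand to an AP-1 motif (TGANTCA, where N is any base) or to a TATA box (TATAAA). No marked matches overlap. The Il1a window is chr2:129309973-129310222 on the minus strand. The window of the first Il1rn start is chr2:24336610-24336859 on the plus strand, and that of the first Il33 start is chr19:29924863-29925112 on the plus strand.
Il1a: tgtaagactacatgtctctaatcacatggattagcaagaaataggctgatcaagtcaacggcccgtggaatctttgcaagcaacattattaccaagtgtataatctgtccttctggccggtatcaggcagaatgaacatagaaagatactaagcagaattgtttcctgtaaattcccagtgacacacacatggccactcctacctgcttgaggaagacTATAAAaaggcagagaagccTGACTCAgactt
Il1rn: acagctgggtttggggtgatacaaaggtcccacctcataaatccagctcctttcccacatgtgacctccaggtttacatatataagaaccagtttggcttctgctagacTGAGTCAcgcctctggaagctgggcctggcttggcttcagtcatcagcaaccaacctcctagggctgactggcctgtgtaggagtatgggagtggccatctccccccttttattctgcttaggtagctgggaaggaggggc
Il33: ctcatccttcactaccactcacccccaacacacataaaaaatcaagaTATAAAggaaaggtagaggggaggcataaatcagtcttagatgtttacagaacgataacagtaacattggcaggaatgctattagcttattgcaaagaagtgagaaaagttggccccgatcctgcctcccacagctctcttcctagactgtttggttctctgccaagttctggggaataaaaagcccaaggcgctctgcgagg
In the Il1a window the TATA box lies at positions -32 to -27, counted from the base before the start as -1, and an AP-1 match lies at -12 to -6. The first Il1rn start has an AP-1 match at -141 to -135, and the first Il33 start has a TATA match at -203 to -198. The second Il33 start, whose window is not printed, has a TATA match at -29 to -24, close to its place in Il1a. The 6 genes have 10 RefSeq starts in all. An AP-1 match was present in 2 of these 10 windows and a TATA match in 4. The other Il1rn starts and all starts of Il1r1, Il18, Il33 and Il1rap had no AP-1 match. Of 32851 windows of the same length over the genome, 6.75% held the AP-1 letters and 12.4% the TATA letters. The matches describe letters and not bound sites, and gene-level counts do not tell the starts of a gene apart.

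Reads recovered from the deposited values summed to 22268997 to 35172593 per library, over 14254 genes and 48 ERCC spike-in RNAs. Genes absent from the deposited values are not in these sums. The targeted gene served as a check of the labels. Jag1 had 226, 321 and 557 normalised counts (reads divided by 1 size factor per library) in shJag1 libraries 1, 2 and 3, against 412, 983 and 847 in shCtrl libraries 1, 2 and 3. The shJag1 mean was 49.2% of the shCtrl mean and the groups overlapped, since shJag1 library 3 exceeded shCtrl library 1. Its log2 change was -1.03 (SE 0.45), with a Benjamini-Hochberg adjusted p of 0.691 in limma and of 0.0063 in DESeq2 with a term for the replicate number. With that term Jag1 was not called by limma (adjusted p 0.149) or edgeR (0.182), and the DESeq2 call was lost without pair 2 of same-numbered libraries (log2 change -0.73, adjusted p 0.788) and without pair 3 (-1.24, adjusted p 0.0812). Of all genes, DESeq2 with that term called 636 higher and 364 lower with all pairs. It called 65 and 35 without pair 2, and 89 and 39 without pair 3. The libraries numbered 1 of both groups stood apart from the other 4 along the first principal component, which held 55.8% of the variance. Along the second, which held 29.0%, shJag1 libraries 1, 2 and 3 (-3.98, 59.2 and 46.9) lay above shCtrl libraries 1, 2 and 3 (-21.7, -38.3 and -42.2). All 10 ductal epithelium markers were in the table, with summed normalised counts of 263024 to 639239 in shJag1 libraries and 197408 to 264096 in shCtrl libraries. Of 18 leukocyte markers, 3 were in the table (Cd68, Cd14 and Ly6g), and their sum was 2147 to 9825 in shJag1 libraries and 1066 to 9208 in shCtrl libraries. Ly6g, a granulocyte surface marker, had 86.8, 4528 and 2992 normalised counts in shJag1 libraries and 93.6, 14.9 and 12.5 in shCtrl libraries. Cd14 went the other way, lower in shJag1 libraries 2 and 3 than in shCtrl libraries 2 and 3. DESeq2 with the replicate term called 5 of the 10 epithelial markers and 2 of the 3 leukocyte markers (Cd68 and Ly6g) higher in shJag1, as well as 4.54% of all genes, while limma, limma with the replicate term and edgeR called 0 of the markers in either list. Ptprc, the defining leukocyte gene, was not analysed here, nor were the myeloid markers S100a8, S100a9 and Itgam of the same list. The presence of leukocytes was not tested. Of 10 fibroblast markers 2 were in the table (28.9 to 45.5 in shJag1 libraries, 35.6 to 44.8 in shCtrl libraries), and of 6 endothelial markers 1 (6.14 to 54.4 in shJag1 libraries, 6.23 to 62.1 in shCtrl libraries). The part of these markers in the values of the interleukin-1 family genes was not tested.

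None of the 6 interleukin-1 family genes passed the test between shJag1 and shCtrl. Limma called 0 of 6, with adjusted p from 0.825 to 0.995, and it called 0.0% of the 13997 genes tested, of which 1021 had an unadjusted p under 0.05. Unadjusted p-values of the 6 genes began at 0.226. The count was also 0 of 6 in edgeR (0.0% of all genes), in DESeq2 (1.24%), and, with the replicate number as a term, in limma (0.0143%), edgeR (0.0143%) and DESeq2 (7.14%). The shJag1 and shCtrl libraries overlapped for all 6 genes, while 11.7% of all genes did not overlap. In these bulk libraries, fewer cells of a type and less RNA per cell cannot be told apart.

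**Figure D1:**
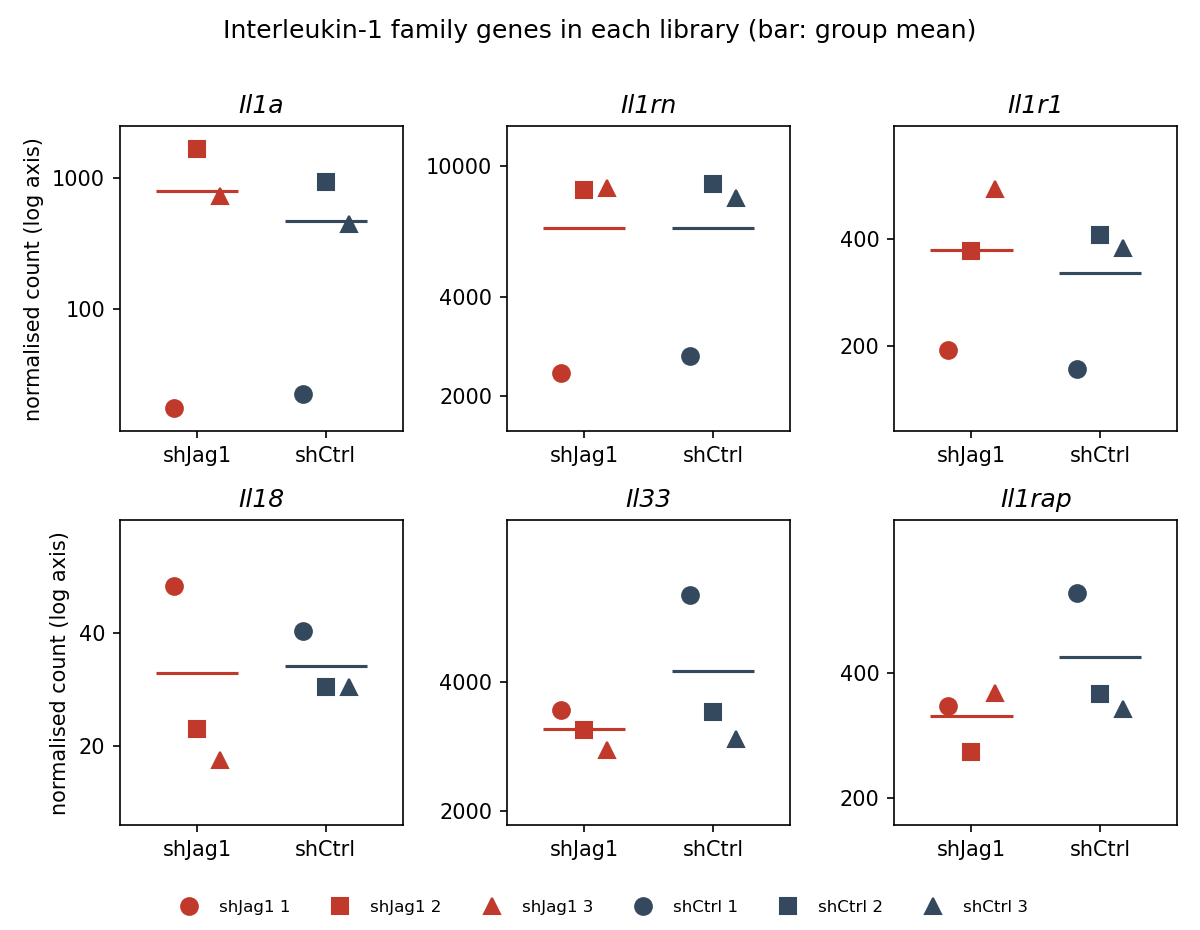
Normalised count (log axis, a separate range in each panel) of 6 interleukin-1 family genes in each library, shJag1 left and shCtrl right, with the symbol giving the replicate number and the bar the group mean of 3 libraries. Both libraries numbered 1 (circles) lie below the other 4 for Il1a, Il1rn and Il1r1 and above them for Il18 and Il33.

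Il1a, the alpha ligand, had the widest spread of the 6 genes. It had 17.5, 1655 and 723 normalised counts in shJag1 libraries 1, 2 and 3, and 22.4, 931 and 442 in shCtrl libraries 1, 2 and 3. Both libraries numbered 1 were low and the other 4 were high, in either group. The low values rest on 20 reads in shJag1 library 1 and 27 reads in shCtrl library 1, with exact 95% Poisson intervals of 10.7 to 27.1 and 14.7 to 32.5 normalised counts, which cover counting error only. Mean Il1a was 799 ± 821 in shJag1 and 465 ± 455 in shCtrl (SD, n = 3 each). The log2 change was 0.40 (SE 1.98, 95% interval -4.31 to 5.11), with an adjusted p of 0.983 in limma. Adding the replicate number to the model narrowed the interval to -0.29 to 1.09 (adjusted p 0.463, limma). By pair of libraries with the same number, the ratio of shJag1 to shCtrl was 0.784, 1.78 and 1.64 in pairs 1, 2 and 3. When pair 1 was left out, Il1a was called higher in shJag1 by DESeq2 with the replicate term (log2 change 0.77, SE 0.24, adjusted p 0.0119). That fit called 9.24% of all genes higher. Limma on the same 4 libraries, without the replicate term, gave 0.77 with an adjusted p of 0.369. The gene lies on chromosome 2 at 129299610 to 129309972 on the minus strand (GRCm38, GENCODE M21), and 1 of its exons overlaps an exon of the noncoding gene Gm14023 on the other strand. The library kit does not mark strand, so reads of this overlap cannot be assigned. Gm14023, named after its values were seen, had 8.41 to 35.6 normalised counts in shJag1 libraries and 18.4 to 25.7 in shCtrl libraries.

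Il1rn, the antagonist gene, was nearly level between the groups in each pair. It had 2349, 8491 and 8616 normalised counts in shJag1 libraries 1, 2 and 3, and 2654, 8841 and 7994 in shCtrl libraries. Again both libraries numbered 1 were the lowest of the 6. Mean Il1rn was 6485 ± 3583 in shJag1 and 6496 ± 3354 in shCtrl (SD, n = 3 each). The log2 change was -0.04 (SE 0.65, 95% interval -1.59 to 1.51, adjusted p 0.995, limma). With the replicate term, the interval of -0.35 to 0.27 was the narrowest of the 6 genes (adjusted p 0.882, limma). Il1rn lies on chromosome 2 at 24336853 to 24351494 on the plus strand.

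Il18, the ligand cut by inflammasome caspases, was the least abundant of the 6 genes by reads over all libraries. It had 53.5, 22.1 and 18.3 normalised counts in shJag1 libraries 1, 2 and 3, and 40.6, 28.7 and 28.7 in shCtrl libraries. Here the libraries numbered 1 were the highest. These values rest on 18 to 61 reads per library, and the exact 95% Poisson intervals of shJag1 libraries 2 and 3 (13.1 to 35.0 and 11.7 to 27.3 normalised counts) overlapped those of shCtrl libraries 2 and 3 (18.6 to 42.4 and 18.2 to 43.0). Mean Il18 was 31.3 ± 19.3 in shJag1 and 32.7 ± 6.88 in shCtrl (SD, n = 3 each), and the log2 change was -0.20 (SE 0.49, 95% interval -1.36 to 0.97, adjusted p 0.961, limma). The log2 differences of 0.39, -0.36 and -0.62 in pairs 1, 2 and 3 put shJag1 above shCtrl in 1 pair and below it in 2. Il18 lies on chromosome 9 at 50554827 to 50581840 on the plus strand.

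Il33, the nuclear alarmin, was lower in shJag1 than in shCtrl in all 3 pairs, by amounts inside the spread. It had 3453, 3090.4 and 2774 normalised counts in shJag1 libraries 1, 2 and 3, and 6411, 3409 and 2954 in shCtrl libraries. With pairs 2 and 3 swapped, shJag1 library 2 would lie above shCtrl library 3. Over all genes, 2764 of 13997 were lower in all 3 pairs, and 42.0% kept 1 sign. The shCtrl library 1 stood far above the other 5, which lay close together. Mean Il33 was 3106 ± 339 in shJag1 and 4258 ± 1879 in shCtrl (SD, n = 3 each). The log2 change was -0.37 (SE 0.30, 95% interval -1.09 to 0.35, adjusted p 0.841, limma), and with the replicate term the interval was -0.84 to 0.09 (adjusted p 0.332). Without pair 1 the log2 change was -0.12 (adjusted p 0.674, limma without the replicate term). Il33 lies on chromosome 19 at 29925114 to 29960718 on the plus strand.

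Il1r1, the signalling receptor chain, had 195, 369.9 and 554 normalised counts in shJag1 libraries 1, 2 and 3, and 173, 411 and 379 in shCtrl libraries. The libraries numbered 1 were the lowest in both groups, and shJag1 library 3 was the highest of all. Mean Il1r1 was 373 ± 179.7 in shJag1 and 321 ± 129 in shCtrl (SD, n = 3 each), and the log2 change was 0.19 (SE 0.49, 95% interval -0.98 to 1.36, adjusted p 0.964, limma). It lies on chromosome 1 at 40225080 to 40317257 on the plus strand.

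Il1rap, the accessory chain shared by the receptors of interleukin-1 and interleukin-33, had 333, 258 and 358 normalised counts in shJag1 libraries 1, 2 and 3, and 625, 357 and 329 in shCtrl libraries. As for Il33, shCtrl library 1 was the highest by a wide margin. Mean Il1rap was 317 ± 52.2 in shJag1 and 437 ± 163 in shCtrl (SD, n = 3 each), and the log2 change was -0.42 (SE 0.31, 95% interval -1.16 to 0.33, adjusted p 0.825, limma). Without pair 1 it was -0.17 (adjusted p 0.688, limma without the replicate term). Il1rap lies on chromosome 16 at 26581704 to 26730117 on the plus strand. Its exons overlap exons of the antisense gene Gm20319, which was not analysed here. The overlap came to 5 exon pairs over all transcripts, so a shared stretch may count more than once.

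**Figure D2:**
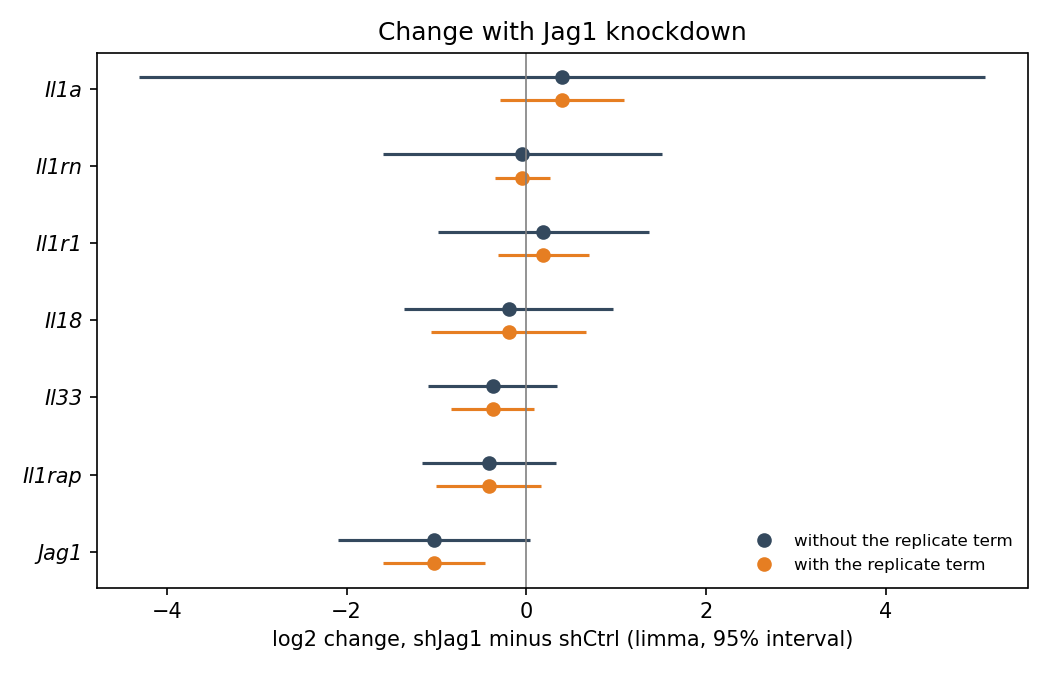
Log2 change, shJag1 minus shCtrl, of 6 interleukin-1 family genes and Jag1, with 95% intervals from limma without (dark) and with (orange) the replicate number as a term. All 6 family intervals cross 0 in both fits, and the Il1a interval shrinks from -4.31 to 5.11 without the term to -0.29 to 1.09 with it.

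Levels of different genes were set side by side as normalised counts per kilobase of exon. The length was that of all annotated exons of a gene together, such as 1974 bases for Il1a, 5535 for Il1rn and 11360 for Il1rap. Genes with many alternative exons can be understated, and ranks and ratios per kilobase depend on this length. Il1rn and Il33 were the most abundant, Il1a was intermediate and Il1r1, Il18 and Il1rap were low. Il1rn averaged 1172 ± 647 in shJag1 and 1174 ± 606 in shCtrl, and Il33 averaged 1076 ± 118 in shJag1 and 1475 ± 651 in shCtrl (counts per kilobase, SD, n = 3 each). Il1a averaged 404.5 ± 416 in shJag1 and 236 ± 231 in shCtrl on the same scale. Of the low genes, Il1r1 averaged 58.6 ± 28.2 in shJag1 and 50.5 ± 20.3 in shCtrl, Il18 averaged 30.4 ± 18.7 in shJag1 and 31.7 ± 6.67 in shCtrl, and Il1rap averaged 27.9 ± 4.60 in shJag1 and 38.5 ± 14.4 in shCtrl. The ranges over libraries of Il1rn (424 to 1597) and Il33 (961 to 2221) overlapped, and those of the 3 low genes overlapped too. Il1a, with a range of 8.89 to 838.5, overlapped every other gene but Il33. Its place depended on the replicate number: it was the lowest of the 6 genes in both libraries numbered 1 and the third in the other 4. Il33 exceeded Il1rn in both libraries numbered 1, and Il1rn exceeded Il33 in the other 4.

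The ratio of antagonist to alpha ligand RNA followed the replicate number. Per kilobase, Il1rn exceeded Il1a by 47.8-fold, 1.83-fold and 4.25-fold in shJag1 libraries 1, 2 and 3, and by 42.3-fold, 3.39-fold and 6.45-fold in shCtrl libraries. Il1rn was thus above Il1a in all 6 libraries, most so in those numbered 1. The mean log2 ratio was 2.85 ± 2.44 in shJag1 and 3.28 ± 1.89 in shCtrl (SD, n = 3 each), a difference of -0.44 that is smaller than either SD. By pair it was 0.17, -0.89 and -0.60 in pairs 1, 2 and 3. Its sign varied when single libraries were left out: it was -1.80 without shJag1 library 1, 0.55 without shJag1 library 2 and 0.62 without shCtrl library 1. Leaving out 1 library also leaves the libraries numbered 1 in unequal shares between the groups. The ratio is a description with no test, and the beta ligand is not in it.

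Averaged over both groups, the log2 difference between the libraries numbered 1 and the others was larger in size than the log2 change between groups for all 6 genes. Il1a in the library numbered 1 differed from the mean of libraries 2 and 3 by -5.88 on the log2 scale in shJag1 and by -4.78 in shCtrl. A mean difference as large in either direction was found in 0.143% of all genes. For Il1rn these differences were -1.86 in shJag1 and -1.66 in shCtrl, and for Il1r1 -1.21 in shJag1 and -1.18 in shCtrl. Il18 went the other way, at 1.37 in shJag1 and 0.49 in shCtrl. Il33 (0.24 in shJag1, 1.01 in shCtrl) and Il1rap (0.13 in shJag1, 0.86 in shCtrl) were higher in the library numbered 1 mainly in shCtrl. Both libraries numbered 1 lay below the other 4 for 3 of the 6 genes and above them for 2, against 23.3% and 23.7% of all genes. The mitochondrial share of reads moved with the replicate number as well, at 0.551%, 1.01% and 1.20% in shJag1 libraries 1, 2 and 3, and 0.592%, 1.54% and 2.02% in shCtrl libraries. Its part in these differences was not tested. The labels do not say what the replicate number stands for.

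**Figure D3:**
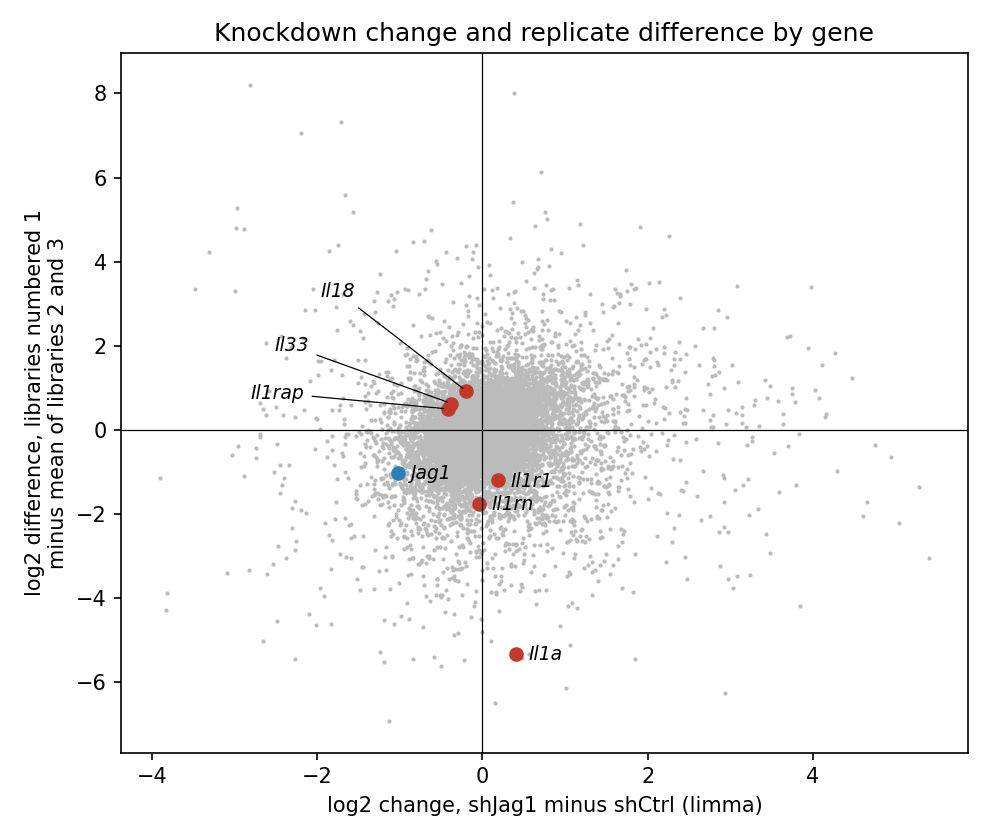
Each grey point is 1 of the 13997 genes tested, with the log2 change of shJag1 minus shCtrl from limma on the horizontal axis and, on the vertical axis, the log2 difference of libraries numbered 1 minus the mean of libraries 2 and 3, averaged over both groups. Il1a lies near 0.40 horizontally and at -5.33 vertically, the other 5 family genes (red) lie within 0.42 of 0 horizontally, and Jag1 (blue) lies at -1.03.

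Across the 6 libraries, log2 Il1a, Il1rn and Il1r1 moved together (Pearson r 0.98 for Il1a with Il1rn, 0.94 for Il1rn with Il1r1 and 0.90 for Il1a with Il1r1), and Il18 moved against them (r -0.89 to -0.90). Il33 and Il1rap had r 0.88, which leans on shCtrl library 1, the highest for both (6411 and 625 normalised counts). Of the other libraries, shJag1 library 3 had the lowest Il33 (2774) and the highest Il1rap (358). The r values above describe 6 libraries that fall apart by replicate number, so the libraries are not spread evenly over the range. Among 10820 genes with a mean of at least 50 normalised counts, those most like Il1a were Map2k1, a MAP kinase kinase (r 0.999), Adgrf1 (0.998) and Ecm1 (0.998), and 355 genes reached 0.95. The genes most like Il1rn were Rnf123, the AP-1 subunit gene Fosl2 and Mnt (0.998 each, 411 genes at 0.95 or more), and those most like Il1r1 were Irgq, Ppp1r15a and Rras2 (0.996, 0.996 and 0.995, 189 genes). Il18 was most like Stk19 (0.999), Slc25a29 (0.998) and Mrps35 (0.994), with 150 genes at 0.95 or more. With Il33, 9 genes reached 0.95, led by Ttc39c (0.989), Vamp3 (0.979) and Tgfbi (0.979). With Il1rap, 7 genes did so, led by Zmat3 (0.985), Prrg1 (0.983) and Gabpb1 (0.980).

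The other genes of the pathway were read from 5 lists with 103 genes, of which 76 were tested. Limma called 0 of the 76, with 4 at an unadjusted p under 0.05 and a smallest adjusted p of 0.604. edgeR called 0 and DESeq2 without the replicate term 2, both lower. Their shJag1 and shCtrl libraries did not overlap for 5.26% of them, against 11.7% of all genes. DESeq2 with the replicate term called 3 of 76 higher (3.95%) and 3 lower (3.95%), against 4.54% and 2.60% of all genes. None of these 6 calls held in DESeq2 without pair 2 or without pair 3, and all 6 held without pair 1. Of all 13997 genes, that fit called 65 higher and 35 lower without pair 2. It called 89 and 39 without pair 3, and 1294 and 884 without pair 1. The 6 log2 changes kept their sign in each of these fits. They ranged from -1.01 to -0.94 for Map3k3 and from -2.42 to -1.10 for Vcam1.

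Among other family receptors and binding proteins, 0 of 4 tested genes were called by limma or by DESeq2 with the replicate term. Sigirr, an inhibitory receptor of the family, had 2210.1, 3772 and 2359 normalised counts in shJag1 libraries and 1769, 3893 and 3642 in shCtrl libraries. Il18rap, the accessory chain of the interleukin-18 receptor, had 346, 257 and 184 in shJag1 libraries and 495, 283 and 379 in shCtrl libraries. It was lower in shJag1 in all 3 pairs, as were 2764 of all 13997 genes tested. The groups overlapped, with a limma log2 change of -0.56 (SE 0.33, adjusted p 0.771). Il18bp, which captures interleukin-18, had 48.1 to 65.1 in shJag1 libraries and 54.8 to 85.3 in shCtrl libraries. The decoy receptor gene Il1r2 and the interleukin-33 receptor gene Il1rl1 were not analysed here.

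All 26 genes of receptor signalling were tested, with a median log2 change of -0.01 against 0.00 over all genes. DESeq2 with the replicate term called 1 of them, lower, against 2.60% of all genes. That gene, Map3k3, a kinase of the MAP kinase and NF-kB branches, had 491, 546 and 644 normalised counts in shJag1 libraries 1, 2 and 3, and 939, 1145 and 1247 in shCtrl libraries. The groups did not overlap, and the log2 change was -0.98 (SE 0.20, adjusted p 0.604 in limma, and -0.99 with SE 0.19 and adjusted p 3.26e-05 in DESeq2 with the replicate term). The NF-kB subunit genes Nfkb1 and Rela were the most abundant of the list and overlapped between the groups. Nfkb1 had 3619.5 to 4876 in shJag1 libraries and 3596 to 5820.0 in shCtrl libraries, and Rela had 3027 to 3721 in shJag1 libraries and 2631 to 3468 in shCtrl libraries.

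Of 27 genes of the inflammasome and of ligand processing, 16 were tested, with a median log2 change of 0.28 against 0.00 over all genes. DESeq2 with the replicate term called 2 of the 16 higher and 0 lower, against 4.54% and 2.60% of all genes. Nlrp6, an inflammasome sensor of gut epithelium, had 1387, 354 and 303 normalised counts in shJag1 libraries 1, 2 and 3, and 889.8, 90.7 and 156 in shCtrl libraries (log2 change 1.16, SE 0.31, adjusted p 0.00587). Nlrc4, the adaptor of the flagellin sensors, had 107, 249 and 278 in shJag1 libraries and 75.4, 117 and 95.9 in shCtrl libraries (1.05, SE 0.35, adjusted p 0.0405). Each was higher in shJag1 in all 3 pairs, as were 3118 of all 13997 genes tested. Both genes overlapped between the groups, and limma gave adjusted p of 0.839 for Nlrp6 and 0.676 for Nlrc4. Capns1, the small subunit of the calpains that cut the alpha ligand precursor, had 8827 to 11904 in shJag1 libraries and 7569.6 to 9099 in shCtrl libraries. Casp1, Nlrp3 and Pycard, the core of the classical inflammasome, were not analysed here.

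Of 36 genes known to respond to interleukin-1, 30 were tested, and they varied with the replicate number more than with the group. Both libraries numbered 1 lay below the other 4 for 21 of the 30 (70.0%, against 23.3% of all genes) and above them for 0 (23.7% of all genes). The median difference of these libraries from the rest was -1.51 on the log2 scale. Between groups, 25 of 30 were higher in shJag1 in pair 1 (83.3%, against 51.8% of all genes), while in pairs 2 and 3 together 17 were lower (56.7%, against 36.1%) and 7 higher. DESeq2 with the replicate term called 1 of the 30 higher and 2 lower, against 4.54% and 2.60% of all genes. Limma on all 6 libraries called 0 of the 30. On replicates 2 and 3 only, limma without the replicate term called 1 higher and 10 lower, against 846 and 500 of all 13997 genes.

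The response genes with the highest means showed this split. Cxcl5, a neutrophil chemokine gene, had 1554, 12551 and 12453 normalised counts in shJag1 libraries 1, 2 and 3, and 719, 40774 and 52045 in shCtrl libraries. Its log2 change was -0.88 (SE 1.72, adjusted p 0.942, limma), and -1.88 without pair 1 (adjusted p 0.00659, limma on 4 libraries, which called 9.62% of all genes). Tnfaip2 had 1780.4, 15452 and 11369 in shJag1 libraries and 1430.0, 25396 and 26778 in shCtrl libraries, and limma gave -0.55 for it (SE 1.31, adjusted p 0.958).

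The 3 response genes called by DESeq2 with the replicate term did not share a direction. Vcam1, a leukocyte adhesion molecule gene, had 227, 451 and 440.1 normalised counts in shJag1 libraries 1, 2 and 3, and 253, 1829.5 and 3072 in shCtrl libraries (log2 change -1.69, SE 0.43, adjusted p 0.00327). Mmp13, a collagenase gene, had 2.63, 36.9 and 43.6 in shJag1 libraries and 4.14, 341 and 227 in shCtrl libraries (-2.46, SE 0.55, adjusted p 5.54e-04). Tnfaip3, which encodes the NF-kB inhibitor A20, had 474, 1800.2 and 2107 in shJag1 libraries and 372, 766 and 894 in shCtrl libraries (0.95, SE 0.25, adjusted p 0.00635). In pair 1 the log2 differences of shJag1 minus shCtrl were -0.15 for Vcam1, -0.50 for Mmp13 and 0.35 for Tnfaip3, and they were larger in size in pairs 2 and 3 for each gene. The Mmp13 counts of pair 1 (2.63 and 4.14) lie below the filter value of 10, where the added count of 1 shrinks a difference. The 3 leukocyte markers in the table varied over the same libraries, in both directions. Ly6g had 4528 and 2992 in shJag1 libraries 2 and 3, against 14.9 and 12.5 in shCtrl libraries 2 and 3, and Cd68 had 988 and 400.4 in the same shJag1 libraries, against 136 and 111 in the same shCtrl libraries. Cd14 went the other way, with 4309 and 3211 in shJag1 libraries 2 and 3, against 7938 and 9085 in shCtrl libraries 2 and 3. The part of these markers in the response genes was not tested.

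**Figure D4:**
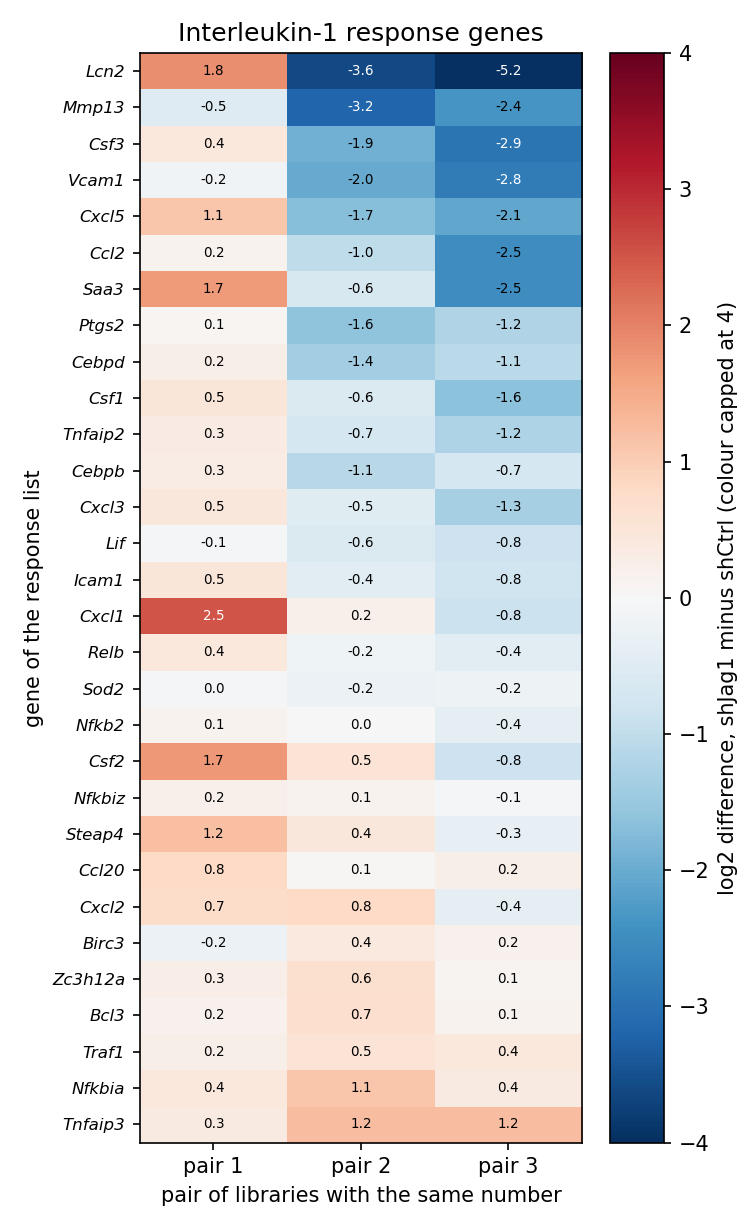
Log2 difference, shJag1 minus shCtrl, of the 30 tested interleukin-1 response genes (down the page, ordered by their mean over pairs 2 and 3) in pairs 1, 2 and 3 of libraries with the same number; red is higher and blue lower in shJag1, and the colour is capped at 4. In pair 1, 25 of 30 are above 0, while 17 are below 0 in both pairs 2 and 3.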

How the data were processed

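RNA was measured in 6 libraries of mouse PDAC organoids, 3 shJag1 and 3 shCtrl, grouped by their titles, made with the TruSeq RNA Library Prep Kit v2 per the labels' protocols. Build GRCm38 and the tools STAR 2.5.2b, Trimmomatic and DESeq2 1.32.0 are named, per the submitters' processing notes. The counting tool and annotation are not given in the sources used here. The values deposited by the authors are a signal per gene and library, read counts divided by 1 size factor per library. Within 0.001 of a read, 100.0% of the values were whole reads, which were recovered. All 6 deposited tables were identical, and 5 were left out. Ensembl identifiers were tied to symbols for 14219 of 14254 genes and to GENCODE M21 positions for 14226.

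The main test was limma 3.58.1 (R 4.3.3) with trend on log2(normalised count + 1), two-sided, over the 13997 genes with at least 10 normalised counts in at least 3 libraries, adjusted by Benjamini-Hochberg over those genes, with calls at an adjusted p below 0.05. The filter removed 257 genes. A fold change on this scale understates that of low genes. Alternatives were edgeR 4.0.16 and DESeq2 1.42.0 on the recovered reads, and the fits of the closing section. The code was tested on simulated data.

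Whether equal replicate numbers pair the libraries was checked ahead of any comparison of calls. Across genes, the deviations of same-numbered libraries from their group means had r = 0.68, 0.57 and 0.44 for numbers 1, 2 and 3. They passed the threshold of 0.1 and the numbers were treated as pairs. Deviations from a group mean cancel out within the group. Since the libraries numbered 1 deviated together, libraries 2 and 3 tend to a positive r in any order, and the check cannot show that they pair. Crossed libraries 2 and 3 also passed the threshold (0.385 and 0.365), so pairs 2 and 3 are not told from their swap. In an exact two-sided permutation test over libraries, which cannot go below 0.1 here, p was 0.5 to 0.8 for the 6 genes and 0.2 for Jag1.

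Family genes and lists were chosen with earlier results of these data known. The genes named are the family, Jag1, in each list up to 4 called genes with the largest change and the 2 with the highest mean, and for each family gene the 3 with the highest Pearson r. One gene that this rule names is not reported here. Lists cover other ligands and binding proteins, other receptors, receptor signalling, inflammasome and processing, response genes, and markers of ductal epithelium, leukocytes, fibroblasts and endothelium. Promoter sequences are from RefSeq (GRCm38.p6), and all 6 genes matched.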

Additional observations from a re-analysis of the deposited data

How the results depend on the processing

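Il33 and Il1rap kept a negative log2 change under all 21 alternatives tried (-0.60 to -0.04 for Il33, -0.69 to -0.13 for Il1rap), none past the threshold. The signs of the other 4 genes varied when each library in turn was left out of limma without the replicate term. The log2 change was then -1.19 to 2.36 for Il1a, -0.65 to 0.10 for Il18, -0.60 to 0.58 for Il1rn and -0.21 to 0.59 for Il1r1. Leaving out 1 library also leaves the libraries numbered 1 in unequal shares between the groups. The sign turned for Il1a without shJag1 replicate 2 or 3 or shCtrl replicate 1, for Il18 without shJag1 replicate 3, for Il1rn without shJag1 replicate 1 or shCtrl replicate 2 or 3, and for Il1r1 without shJag1 replicate 3 or shCtrl replicate 1. Il1rn was also 0.0249 in limma on replicates 2 and 3 and 0.025 in DESeq2 with the replicate block without pair 1, and Il18 was 0.0251 in that fit without pair 3. The fits without 1 pair were added after seeing the data. In DESeq2 with the replicate block, Il1a was 0.77, 0.28 and 0.38 without pairs 1, 2 and 3. Il1r1 was 0.20, 0.36 and 0.0066 in the same fits, so neither gene changed sign there. Without pair 1, DESeq2 with the replicate block called Il1a higher (0.77), so 1 of the 6 genes, and Jag1 lower (-1.10), as the same fit did with all pairs (-1.02). It did not call Jag1 without pair 2 (-0.73, adjusted p 0.788) or pair 3 (-1.24, adjusted p 0.0812), nor did limma (adjusted p 0.149) or edgeR (0.182) with the block. The log2 difference of the Il1rn to Il1a ratio went from -1.80 to 0.62 when each library was left out in turn. The replicate block changed no call of the 6 genes with all 3 pairs present.

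Of the 76 pathway genes, limma called 0, spike-in scaling 1 lower, leaving out shCtrl replicate 1 gave 2 lower, and DESeq2 without the block 2 lower. DESeq2 with the replicate block called 3 higher and 3 lower. Without pair 1 that fit gave 9 higher (11.8%) and 16 lower (21.1%), against 1294 and 884 of all 13997 genes. Limma on replicates 2 and 3 gave 7 higher (9.21%) and 12 lower (15.8%), against 846 and 500 of all 13997 genes. Of all genes, limma and edgeR with the replicate block called 2 higher, spike-in scaling 77 higher and 39 lower, replicates 2 and 3 alone 846 higher and 500 lower, and DESeq2 101 higher and 73 lower. DESeq2 with the replicate block called 636 higher and 364 lower, 1294 and 884 without pair 1, 65 and 35 without pair 2, and 89 and 39 without pair 3. Leaving out single libraries gave 0 to 210 higher and 0 to 84 lower, the most without shCtrl replicate 1. The cause was not tested. Spike-in scaling moved the median log2 change of all genes to -0.18. At a filter of 50 Il18 had no value, and no family gene in the table fell below the filter of 10. Depth limits Il18 and, in the libraries numbered 1, Il1a.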

Other observations

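Il1bos is a noncoding gene on the strand opposite to Il1b, and their exons overlap (2 exon pairs, counted over all transcripts). Il1bos was in the table and was picked after its values were seen. It had 7.89, 18.4 and 16.8 normalised counts in shJag1 libraries 1, 2 and 3, against 9.94, 32.2 and 27.4 in shCtrl libraries. Both libraries numbered 1 were the lowest, as for Il1a. In each pair shJag1 was below shCtrl (ratios of 0.794, 0.573 and 0.613), as for 2764 of all 13997 genes tested. The groups overlapped, and the adjusted p was 0.732 in DESeq2 with the replicate term. The kit does not mark strand, so its reads cannot be told apart from reads of Il1b in the shared exons.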
